A study of Homo sapiens with 4 samples.

Results

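The genes described here are the 60 cytosolic ribosomal protein genes that could be followed in MCF10A, an immortalised but non-tumorigenic line of human breast epithelium, of 19775 genes on the arrays. They were chosen by symbol: RPL or RPS followed by digits, with an optional A, X, L or closing digit, together with RPLP1 and RPLP2, leaving out pseudogenes and the RPS6K kinases. Of the 60 genes, 30 encode core proteins of the large subunit, 20 core proteins of the small subunit and 2 proteins of the P stalk, and these 52 are called canonical. The other 8 are paralogs, which encode a close relative of a core protein: RPL3L, RPL7L1, RPL10L, RPL22L1, RPL26L1, RPL36AL, RPL39L and RPS27L. RPLP0 and RPSA were not analysed here.

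The study compared 4 MCF10A cultures with 1 Affymetrix array each. One was infected with a retrovirus carrying wild-type YAP (YAP-WT), one with a retrovirus carrying YAP-S94A and one with a retrovirus carrying YAP-W1W2, and vector, the control, received the empty pQCXIH retroviral vector. YAP is a transcriptional coactivator restrained by Hippo signalling. YAP-S94A is changed where YAP binds TEAD transcription factors, and W1W2 carries mutated WW domains, which bind proline-rich partners. All 4 cultures grew in the same medium, which held EGF, insulin, hydrocortisone, cholera toxin and horse serum, and the labels do not say whether infected cells were cloned or pooled. With 1 array per group there was no replicate, so every difference below is between 2 arrays, without an SD, a test or a p-value.

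Each ribosome is built from ribosomal RNA and one copy of most of these proteins, so a growing cell makes the proteins in matched amounts. Their messenger RNAs are among the most abundant in dividing cells. Most begin with a cytosine followed by a run of pyrimidines, the terminal oligopyrimidine (TOP) tract, through which the mTOR pathway and the RNA-binding protein LARP1 control their translation. For these reasons ribosomal protein genes are often used as references against which other transcripts are scaled. Several paralogs, by contrast, are known for expression limited to a tissue or a stress, such as RPL3L in muscle and RPL10L in testis.

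Over all probe sets other than controls, the 2% trimmed mean intensity ran from 458.4 to 503.3 over the 4 arrays, a ratio of 1.098, and the values were used as deposited. YAP1 itself, seen by 3 probe sets, lay between −0.24 and 0.60 (log2) from vector on the YAP arrays, and whether they lie within the constructs is not known. The basal mammary keratins KRT5 and KRT14 lay between 30482 and 39724 on every array. Of 10 basal markers listed, 7 had a probe set with 1 symbol, and all 7 were measured. The rest of the 7 varied more than these keratins. In the order YAP-WT, YAP-S94A and YAP-W1W2, LAMB3 had 14577, 24879 and 21570, against 8899 in vector. CDH1 had 5239, 11039 and 8295, against 5829, and VIM had 20225, 13883 and 9832, against 10191. EGFR had 13200, 6673 and 7259, against 9222, and ITGB4 had 7011, 9396 and 4627, against 6565. Of 6 luminal markers 5 were measured. The summed level of all 6 was 33383 for YAP-WT, 27162 for YAP-S94A and 56034 for YAP-W1W2, against 12441 in vector. It was led by the keratin KRT18 with 16990, 18123 and 34605, against 5609 in vector. GATA3 of this list was below vector only for YAP-S94A. It had 7108 for YAP-WT, 1458 for YAP-S94A and 4723 for YAP-W1W2, against 2679 in vector. ESR1 and PGR, the hormone receptors, were at most 166.6 and 103.2. Among markers of other cell types, 1 of 3 immune ones was measured (CD14, highest in vector at 311.9), 1 of 3 endothelial ones (PECAM1, 472.6 to 680.9) and 3 of 4 fibroblast ones (COL1A1 the brightest, 409.9 to 1105.4). Summed with unmeasured genes included, these lists ran from 125.5 to 392.4 (immune), 550.8 to 718.9 (endothelial) and 893.8 to 1308.0 (fibroblast) over the YAP arrays. In vector the sums were 397.0, 498.5 and 878.3. PTPRC and CDH5 were at most 74.6 and 33.0. CD3E, an immune marker that was not measured, had 256.1 for YAP-WT, 52.7 for YAP-S94A and 49.9 for YAP-W1W2, against 20.3 in vector. The part of these markers in the results was not tested. In total RNA of a culture, fewer cells of a type and less RNA per cell cannot be told apart, and a change shared by all transcripts cannot be seen.

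The canonical genes were very bright. Each gene was read from the brightest of its probe sets that carry 1 gene symbol, and a gene is called measured when the mean intensity over the 4 arrays was at least 113.6, the median over probe sets. Of the 60 genes 58 were measured, and 12759 genes were measured in all. Among the canonical genes 51 of 52 were measured, and 49 had a mean intensity of 10000 or more. Ribosomal protein genes made up 26 of the 50 brightest genes, 44 of the 100 brightest and 48 of the 200 brightest. The brightest was RPS10, a protein of the small subunit, with 38998 for YAP-WT, 47905 for YAP-S94A and 47748 for YAP-W1W2, against 36467 in vector. The 60 genes lie on 19 chromosomes, with 7 on chromosome 19 and 3 on X.

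**Figure D1:**
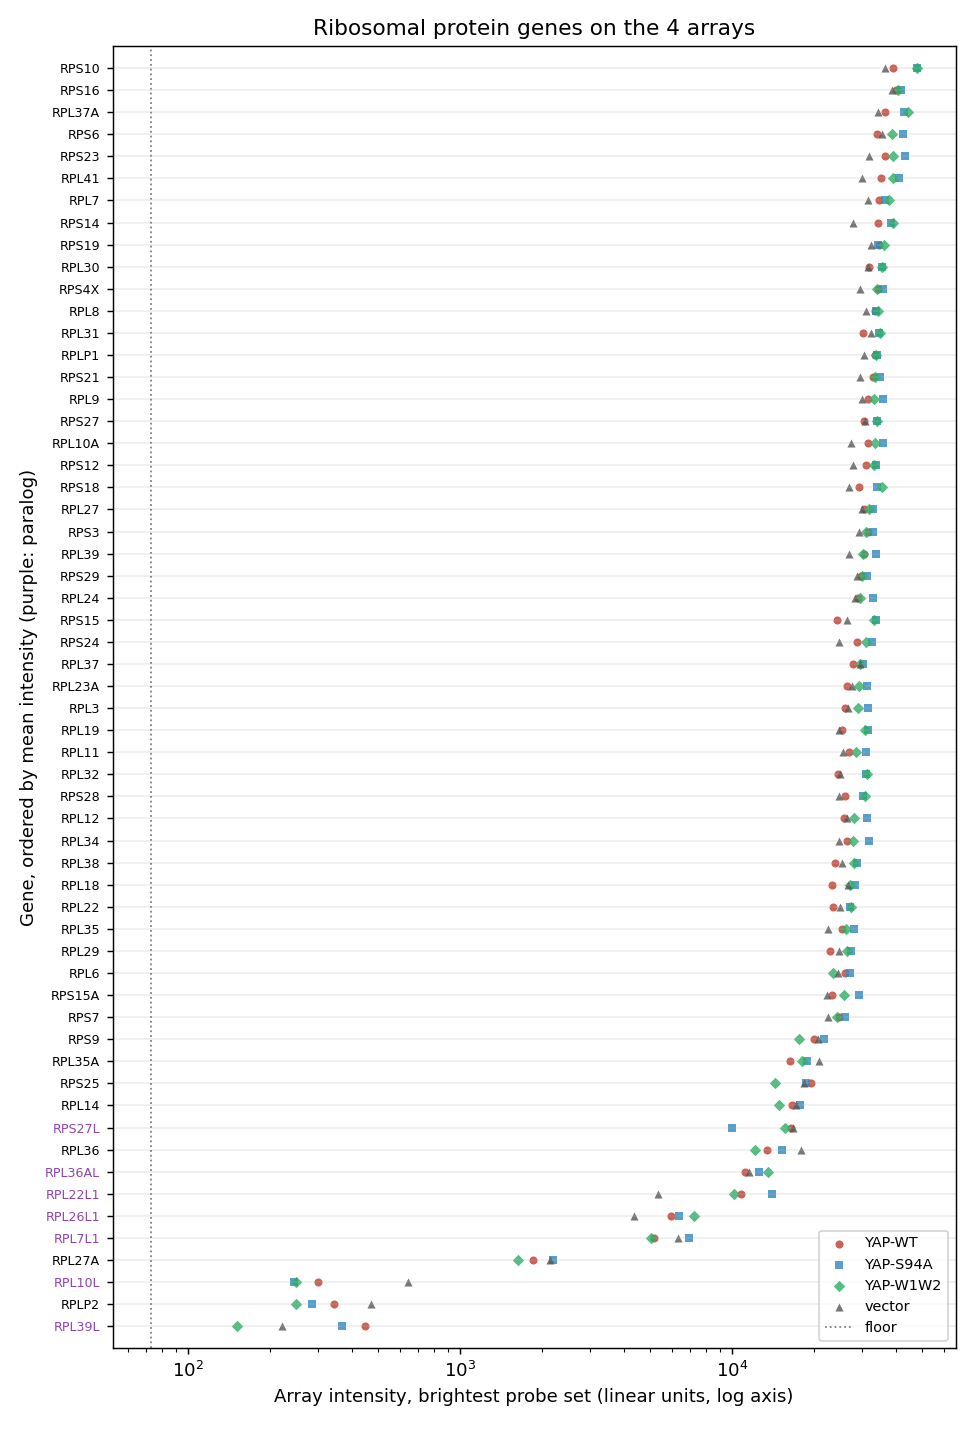
Intensity of each of the 58 measured ribosomal protein genes on each array (x axis, linear intensity units on a log axis), 1 row per gene ordered by mean intensity, with paralogs in purple and the floor of 72.9 as a dotted line. Most canonical genes sit together above 10000 with the 4 arrays close to each other, and the wide rows are those of paralogs and of RPLP2.

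On the brightest probe set of each gene, no canonical gene differed by 2-fold or more in any of the 6 pairwise comparisons. In YAP-WT against vector 0 of 51 canonical genes passed 2-fold, where 14.1% of all measured genes did, and 0 of 51 passed 1.5-fold, where 32.3% did. In YAP-S94A against vector 0 of 51 passed 2-fold and 1 passed 1.5-fold, beside 16.8% and 38.0% of all measured genes. In YAP-W1W2 against vector the counts were again 0 and 1 of 51, beside 19.8% and 41.3%. The 1 gene past 1.5-fold was RPLP2 in both. Between the YAP arrays 0 of 51 passed either size: the shares of all measured genes past 2-fold and 1.5-fold were 11.3% and 29.0% for YAP-S94A against YAP-WT, 9.5% and 26.4% for YAP-W1W2 against YAP-WT, and 9.43% and 25.0% for YAP-W1W2 against YAP-S94A. These 6 comparisons share arrays and are not independent of each other. The counts hold for the probe sets read, 44 of which, over the 60 genes, carry an _s or _x suffix, which marks probes shared between transcripts. Of 50 further measured probe sets of 28 canonical genes, many of them dim, 4 passed 2-fold in YAP-WT against vector, 8 in YAP-S94A against vector and 7 in YAP-W1W2 against vector. Between YAP arrays 5 of the 50 passed in YAP-S94A against YAP-WT, 4 in YAP-W1W2 against YAP-WT and 4 in YAP-W1W2 against YAP-S94A. Other genes had 21573 measured probe sets with a mean under 5000, a range that some of the 50 exceed. Of the 21573, 1919 were at least 2-fold higher and 1204 lower in YAP-WT against vector. The counts against vector were 2193 and 1642 for YAP-S94A, and 2295 and 2204 for YAP-W1W2. Between YAP arrays, in the order above, they were 1203 and 1490, 878 and 1496, and 1042 and 1198.

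The canonical genes moved by small amounts, mostly upward from vector. Their median log2 difference was 0.06 for YAP-WT, 0.21 for YAP-S94A and 0.15 for YAP-W1W2. Over all measured genes the median was 0.14, 0.14 and 0.10 in the same order. In YAP-WT 32 of 51 canonical genes were above vector, or 62.7%, where 59.9% of all measured genes were. In YAP-S94A it was 48 of 51, or 94.1%, beside 59.3%, and in YAP-W1W2 43 of 51, or 84.3%, beside 56.1%. The genes are not independent of each other, and this direction depended on the scaling: after quantile normalization the canonical median was −0.06, −0.10 and −0.17, below vector on all 3 YAP arrays. After centring each array on its median measured gene it was −0.10, 0.06 and 0.11.

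The spread of the canonical genes was narrow. The SD of their log2 differences from vector was 0.16 for YAP-WT, 0.19 for YAP-S94A and 0.25 for YAP-W1W2, while over all measured genes it was 0.72, 0.79 and 0.88. The same was computed for the 42 other genes at least as bright as 24540.1, the lower quartile of the ribosomal protein genes. Those genes had SDs of 0.30, 0.30 and 0.39 and medians of 0.19, 0.47 and 0.47 from vector. At least 2-fold changed were 1, 5 and 6 of these 42 genes, or 2.38%, 11.9% and 14.3%. This was below the 14.1%, 16.8% and 19.8% of all measured genes. None of the canonical genes passed 2-fold.

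**Figure D2:**
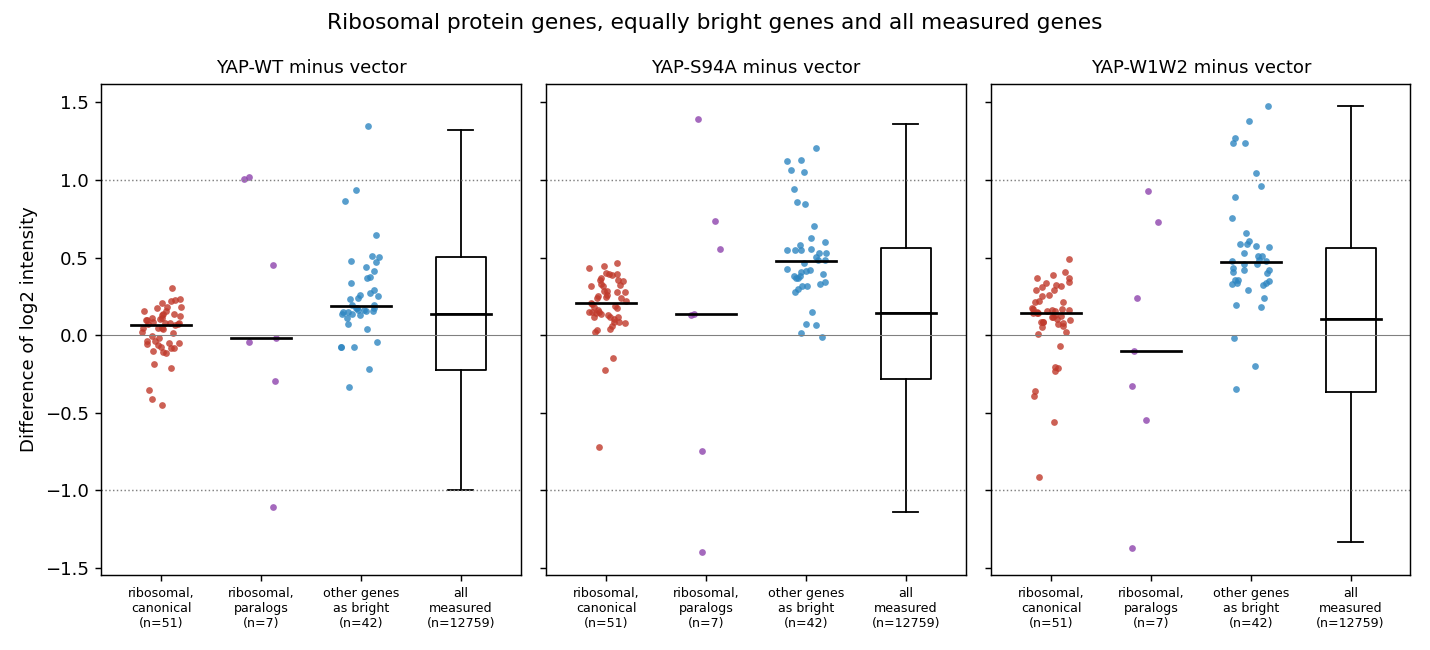
Difference of log2 intensity from vector (y axis) for canonical ribosomal protein genes, paralogs, other genes as bright and all measured genes, 1 panel per YAP array. Points are genes, black lines are medians, and for all measured genes the box spans the quartiles and the whiskers the 5th to 95th percentiles. Dotted lines mark 2-fold, and no canonical gene reaches them.

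The subunits are given separately. Among the 29 measured canonical genes of the large subunit the median log2 difference from vector was 0.01 for YAP-WT, 0.19 for YAP-S94A and 0.13 for YAP-W1W2. Among the 20 genes of the small subunit it was 0.10, 0.27 and 0.19. On the YAP-S94A array all 20 small subunit genes were above vector, as were 27 of the 29 large subunit genes. The SD of the log2 differences was 0.15, 0.15 and 0.21 within the large subunit and 0.10, 0.13 and 0.20 within the small one, and the difference between the subunits was not tested.

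RPS14, a small subunit protein whose loss underlies the 5q deletion anaemia, was the highest canonical gene from vector on all 3 YAP arrays. Its intensity was 34294 for YAP-WT, 38496 for YAP-S94A and 39068 for YAP-W1W2, against 27847 in vector, or log2 differences of 0.30, 0.47 and 0.49. RPS18, another small subunit protein and a common reference gene in PCR, had 29303, 34118 and 35599.7 on the same arrays, against 26809.7 in vector, or 0.13, 0.35 and 0.41. All 3 YAP arrays were thus above vector for both genes, by at most 1.40-fold.

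RPL36, a large subunit protein, ran the other way. It had 13424 for YAP-WT, 15279 for YAP-S94A and 12124 for YAP-W1W2, against 17841 in vector, or log2 differences of −0.41, −0.22 and −0.56. A dim probe set of RPL36 gave −0.67, 0.52 and −0.60, so its direction for YAP-S94A differed between probe sets. RPL35A, a large subunit protein mutated in some cases of Diamond-Blackfan anaemia, had 16329, 18816 and 18026 on the YAP arrays, against 20836 in vector, or −0.35, −0.15 and −0.21. The second bright probe set of RPL35A gave 0.01, 0.02 and −0.27, so its direction for YAP-WT and YAP-S94A differed between probe sets. RPL27A is a large subunit protein whose only probe set with 1 symbol was of medium brightness. It had 1845, 2185 and 1630.0 for YAP-WT, YAP-S94A and YAP-W1W2, against 2135 in vector. Probe sets with several symbols were not read for it.

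RPLP2, a protein of the acidic stalk that recruits translation factors, was the only canonical gene past 1.5-fold on the probe sets read. It was read from a dim probe set, with 343.3 for YAP-WT, 285.0 for YAP-S94A and 248.9 for YAP-W1W2, against 469.2 in vector. The log2 differences were −0.45, −0.72 and −0.91. RPLP1, its partner in the stalk, was bright and nearly level, with 33415 for YAP-WT, 33965 for YAP-S94A and 33770 for YAP-W1W2, against 30658 in vector. On its only probe set with 1 symbol, RPL36A, the 1 canonical gene that was not measured, had 93.9 in vector. It lay below the floor of 72.9 on the YAP arrays, so this probe set was at least 1.29-fold lower there. Probe sets with several symbols, many of them bright, were not read for RPLP2 or RPL36A. These values thus need not stand for the level of either gene.

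Well-known members lay between these extremes. RPL41, the shortest protein of the large subunit, had 35330 for YAP-WT, 40896 for YAP-S94A and 38914 for YAP-W1W2, against 30091 in vector, so that vector was the lowest of the 4 arrays. RPS15, a small subunit protein, was higher on both mutant arrays than on the other pair, with 24340.0 for YAP-WT, 33680.1 for YAP-S94A and 33358 for YAP-W1W2, against 26343 in vector. RPS6, the small subunit protein phosphorylated by the S6 kinases, had 34087, 42430 and 38692 on the YAP arrays, against 35530 in vector, or log2 differences of −0.06, 0.26 and 0.12. Another bright probe set of RPS6 gave −0.08, 0.26 and 0.02, and a further one 0.29, 0.36 and 0.26. The direction of RPS6 for YAP-WT thus differed between probe sets. RPS19, the small subunit protein most often mutated in Diamond-Blackfan anaemia, had 34796 for YAP-WT, 34337 for YAP-S94A and 36215 for YAP-W1W2, against 32329 in vector. RPL11, a large subunit protein that binds the p53 regulator MDM2, differed from vector by 0.08, 0.28 and 0.16 (log2). For RPS6, RPS15 and RPL11 the YAP-S94A array was the highest of the 4, and for RPS19 the YAP-W1W2 array was.

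The steadiness of each gene was described by its range, the highest over the lowest of the 4 arrays. The median range was 1.21-fold for the 51 canonical genes and 1.73-fold for all measured genes. The range was under 1.5-fold for 50 of 51 canonical genes, or 98.0%, against 31.8% of all measured genes. The other genes as bright had a median range of 1.47-fold, with 61.9% of them under 1.5-fold. The tightest, on the probe sets read, were RPS16 of the small subunit (1.08-fold), RPS29 of the small subunit (1.08-fold) and RPL37 of the large subunit (1.09-fold). RPS16 had 39889 for YAP-WT, 41889 for YAP-S94A and 40701 for YAP-W1W2, against 38706 in vector. A pair of other bright probe sets of RPS16 ranged over 1.23-fold and 1.19-fold, so its place as the tightest rests on 1 probe set. The widest, again on the probe sets read, were RPLP2 (1.89-fold), RPL36 (1.47-fold), RPS14 (1.40-fold) and RPS15 of the small subunit (1.38-fold).

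The range carried a common part. The highest of the 4 arrays was YAP-S94A for 36 of the 51 canonical genes, YAP-W1W2 for 11, YAP-WT for 1 and vector for 3. The lowest was vector for 30, YAP-WT for 14, YAP-W1W2 for 7 and YAP-S94A for 0. Without the vector array the median range was 1.16-fold for canonical genes, 1.25-fold for other genes as bright and 1.46-fold for all measured genes.

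**Figure D3:**
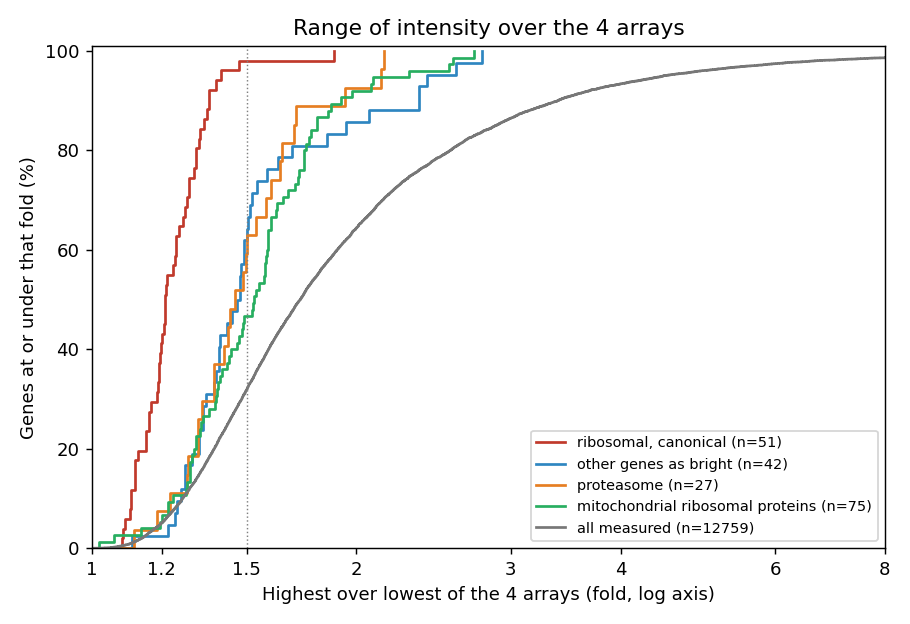
Cumulative share of genes (y axis, percent) whose highest intensity over lowest intensity across the 4 arrays is at or under the fold on the x axis (log axis), for canonical ribosomal protein genes and for 4 other sets. The canonical curve lies left of the others over most of its course, and at the dotted line of 1.5-fold it stands at 98.0%, against 31.8% for all measured genes.

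As lists, other candidate references had wider median ranges. The 75 mitochondrial ribosomal protein genes, which build the separate ribosome of mitochondria, had a median range of 1.53-fold and 46.7% under 1.5-fold. The 27 measured proteasome genes had 1.46-fold and 59.3%. The 13 measured genes of a list of common PCR references had 1.42-fold and 61.5%. ACTB, the actin gene of that list, had 45609 for YAP-WT, 48072 for YAP-S94A and 49363 for YAP-W1W2, against 32866 in vector. Every YAP array was above vector for ACTB by more than for the median canonical gene. B2M, a light chain of the histocompatibility complex on the same list, was as tight as the tightest canonical gene, with 21267 for YAP-WT, 20675 for YAP-S94A and 22201 for YAP-W1W2, against 22311 in vector, a range of 1.08-fold. PGK1, an enzyme of glycolysis, ranged over 1.17-fold. Members of that list thus lay on both sides of the canonical median. The 3 measured elongation factors had a median range of 1.28-fold, and all 3, or 100.0%, were under 1.5-fold.

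The starts of the genes are shown because they separate most canonical genes from most paralogs. RefSeq promoters of assembly GRCh38.p14, 250 bases before to 50 after the annotated start, were available for 52 of the 60 genes, 46 canonical and 6 paralogs. On the sense strand, a C followed by at least 4 pyrimidines that begins within 5 bases of the start was present in 40 of 46 canonical genes (87.0%) and in 2 of 6 paralogs (33.3%), and in 21.1% of all 27305 promoters. The 40 bases around the start follow for 5 canonical genes and 5 paralogs, 20 on each side, 5′ to 3′ on the gene's strand, with the tract in capitals where one was found. RPS16 (chr19:39435930-39435969, minus strand) had the narrowest range on its brightest probe set. RPS14 (chr5:150449720-150449759, minus strand) was the highest canonical gene from vector and RPL36 (chr19:5690275-5690314, plus strand) the lowest of the bright ones. RPL22 (chr1:6199576-6199615, minus strand) and RPS27 (chr1:153990742-153990781, plus strand) are the relatives of the paralogs RPL22L1 (chr3:170870176-170870215, minus strand) and RPS27L (chr15:63157458-63157497, minus strand). RPL26L1 (chr5:172958709-172958748, plus strand), RPL10L (chr14:46651762-46651801, minus strand) and RPL36AL (chr14:49620607-49620646, minus strand) complete the set.
RPS16: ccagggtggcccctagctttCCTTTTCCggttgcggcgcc
RPS14: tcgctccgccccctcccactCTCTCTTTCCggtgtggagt
RPL36: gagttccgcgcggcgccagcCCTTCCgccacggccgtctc
RPL22: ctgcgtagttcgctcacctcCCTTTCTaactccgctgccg
RPS27: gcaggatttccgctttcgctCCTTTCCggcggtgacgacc
RPL22L1: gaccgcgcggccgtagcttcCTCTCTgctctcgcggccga
RPL36AL: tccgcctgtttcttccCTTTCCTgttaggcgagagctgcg
RPS27L: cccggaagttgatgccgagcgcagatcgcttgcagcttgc
RPL26L1: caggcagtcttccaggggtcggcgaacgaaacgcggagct
RPL10L: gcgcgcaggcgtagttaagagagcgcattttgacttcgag

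In the 5 canonical genes shown, and in RPL22L1, the marked tract begins at the annotated first base. In RPL36AL the marked tract begins 4 bases before the start, and in RPS27L, RPL26L1 and RPL10L no such tract was found in this window. In every marked gene shown the base before the capitals is a pyrimidine too, so the run of pyrimidines in the DNA starts earlier. The canonical genes without one were RPL6, RPL9, RPL27, RPS4X, RPS15 and RPS29. An annotated start need not be the start used in these cells. On either strand of the 300 bases, CCGGAAG, a sequence that ETS family factors can bind, was in 36.5% of the 52 promoters, against 10.7% of all promoters. AAGATGG, found in sites of the factor YY1, was in 11.5%, against 6.06%, and TATAAA, the TATA box core, in 9.62%, against 12.0%. The tract and CCGGAAG were counted separately, and a match is a description of letters, not of binding.

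On the brightest probe sets, the differences of 2-fold or more lay among the paralogs. Of the 58 measured genes, 3 passed 2-fold in YAP-WT against vector, 2 for YAP-S94A and 1 for YAP-W1W2, all of them paralogs. None passed in YAP-S94A against YAP-WT, and 1 passed in each of YAP-W1W2 against YAP-WT and YAP-W1W2 against YAP-S94A. As a share of the 58 genes these counts were 5.17%, 3.45% and 1.72% for the comparisons with vector, each below the share of all measured genes given above. The 7 measured paralogs had a median range of 1.68-fold over the 4 arrays, against 1.73-fold for all measured genes.

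RPL22L1, a paralog that can take the place of RPL22 in the large subunit and binds RNA, was the most raised of the brighter paralogs. Its intensity was 10790.4 for YAP-WT, 13979 for YAP-S94A and 10119.5 for YAP-W1W2, against 5322 in vector. On each YAP array it lay farther from vector than any canonical gene did, with log2 differences of 1.02, 1.39 and 0.93. RPL22 had 23463 for YAP-WT, 27157 for YAP-S94A and 27258 for YAP-W1W2, against 24869 in vector, or −0.08, 0.13 and 0.13. RPL22L1 less RPL22 thus differed from vector by 1.10, 1.27 and 0.79 (log2). RPL22L1 rested on 1 probe set. RPL22 had 5, of which the 3 brightest lay between −0.12 and 0.15 of vector, while the others, with mean intensities of 8721 and 5939, were below vector on every YAP array, by −0.19, −0.19 and −0.74 and by −0.42, −0.20 and −0.43. The direction of RPL22 for both mutants thus differed between its probe sets.

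RPL26L1, a near copy of RPL26 in the large subunit, had 5957 for YAP-WT, 6398 for YAP-S94A and 7206 for YAP-W1W2, against 4350.2 in vector. The log2 differences were 0.45, 0.56 and 0.73, so all 3 YAP arrays lay above vector and YAP-W1W2 passed 1.5-fold. RPL26 was not analysed here. RPL36AL, a paralog of RPL36A, was nearly level, with 11179 for YAP-WT, 12569.7 for YAP-S94A and 13586 for YAP-W1W2, against 11506 in vector.

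RPS27L, a paralog of RPS27 and a known p53 target, was set apart on the YAP-S94A array. It had 16505.5 for YAP-WT, 9986 for YAP-S94A and 15596 for YAP-W1W2, against 16749.5 in vector. YAP-S94A was 1.68-fold below vector and 1.65-fold below YAP-WT, and the other 3 arrays lay close together. All 3 probe sets of the gene gave this for YAP-S94A, with log2 differences from vector of −0.75, −0.75 and −0.76. RPS27 had 30572 for YAP-WT, 34046 for YAP-S94A and 34216 for YAP-W1W2, against 30729 in vector, and so was not lower in YAP-S94A. RPS27L was the only member of the 58 past 1.5-fold in YAP-S94A against YAP-WT.

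The dim paralogs gave wide differences from few units. RPL39L, a paralog of RPL39 known from testis and tumours, had 444.2 for YAP-WT, 366.9 for YAP-S94A and 150.9 for YAP-W1W2, against 220.8 in vector. The log2 differences from vector were 1.01, 0.73 and −0.55, and YAP-W1W2 was 2.94-fold below YAP-WT and 2.43-fold below YAP-S94A. RPL10L, a paralog of RPL10 known from testis, had 298.5 for YAP-WT, 243.6 for YAP-S94A and 248.9 for YAP-W1W2, against 642.8 in vector, or −1.11, −1.40 and −1.37. RPL7L1, which takes part in making the large subunit, was not dim. It had 5152 for YAP-WT, 6944 for YAP-S94A and 5035 for YAP-W1W2, against 6316 in vector, and stayed within 1.5-fold of vector. RPL3L was not measured: it had 103.5 for YAP-WT and lay below the floor on the other 3 arrays, vector included.

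Probe sets of the same gene give a view of measurement spread on the same RNA, which is not replicate error. The 60 genes had 121 probe sets with 1 symbol, and 15 genes had more than 1 probe set with a mean intensity of 10000 or more, 34 probe sets in all. Within these genes the median range of the log2 difference from vector was 0.07 for YAP-WT, 0.13 for YAP-S94A and 0.17 for YAP-W1W2. RPS9, a small subunit protein, was the widest. Its brightest probe set differed from vector by −0.05, 0.08 and −0.23, and its second by −0.78, −0.53 and −1.43.

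The dim probe sets mostly lay below vector. There were 31 further probe sets of 20 of the genes that were measured but had a mean intensity under 5000, a limit chosen after the intensities had been seen. Their median log2 difference from vector was −0.23 for YAP-WT, −0.24 for YAP-S94A and −0.47 for YAP-W1W2, and 19, 20 and 25 of the 31 lay below vector. The 21573 probe sets of other genes in the same range had medians of 0.10, 0.10 and 0.03, and 9186, 9384 and 10453 of them lay below vector. RPL37 shows the contrast within 1 gene. Its brightest probe set had 27788 for YAP-WT, 30275 for YAP-S94A and 29533 for YAP-W1W2, against 29410.5 in vector, while a dim one had 1083, 535.5 and 418.9, against 1890 in vector. A dim probe set of RPS29 had 109.4 for YAP-WT, 95.6 for YAP-S94A and 43.6 for YAP-W1W2, against 518.3 in vector, where the bright one was within 0.11 (log2) of vector. What part of each gene the dim probe sets match was not analysed here.

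Control probe sets moved beside these values. bioB, a bacterial control, had 2029 for YAP-WT, 1746 for YAP-S94A and 1456 for YAP-W1W2, against 2988 in vector, or log2 differences of −0.56, −0.78 and −1.04. The control for 18S ribosomal RNA had 260.6, 257.5 and 195.8 on the YAP arrays, against 387.5 in vector, or −0.57, −0.59 and −0.99. The other bacterial controls, bioC and bioD, were also below vector, by −0.38, −0.70 and −0.83 and by −0.27, −0.47 and −0.55, and bioD is bright, at 19152 in vector. The control cre, as bright as the canonical genes, was nearly level, with 0.02, 0.11 and 0.08. Bright controls for human transcripts lay above vector: actin by 0.43, 0.68 and 0.80, GAPDH by 0.22, 0.44 and 0.44, and the Alu repeat by 0.27, 0.48 and 0.49. Controls thus moved in both directions, and their part in the differences of the ribosomal protein genes was not tested.

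**Figure D4:**
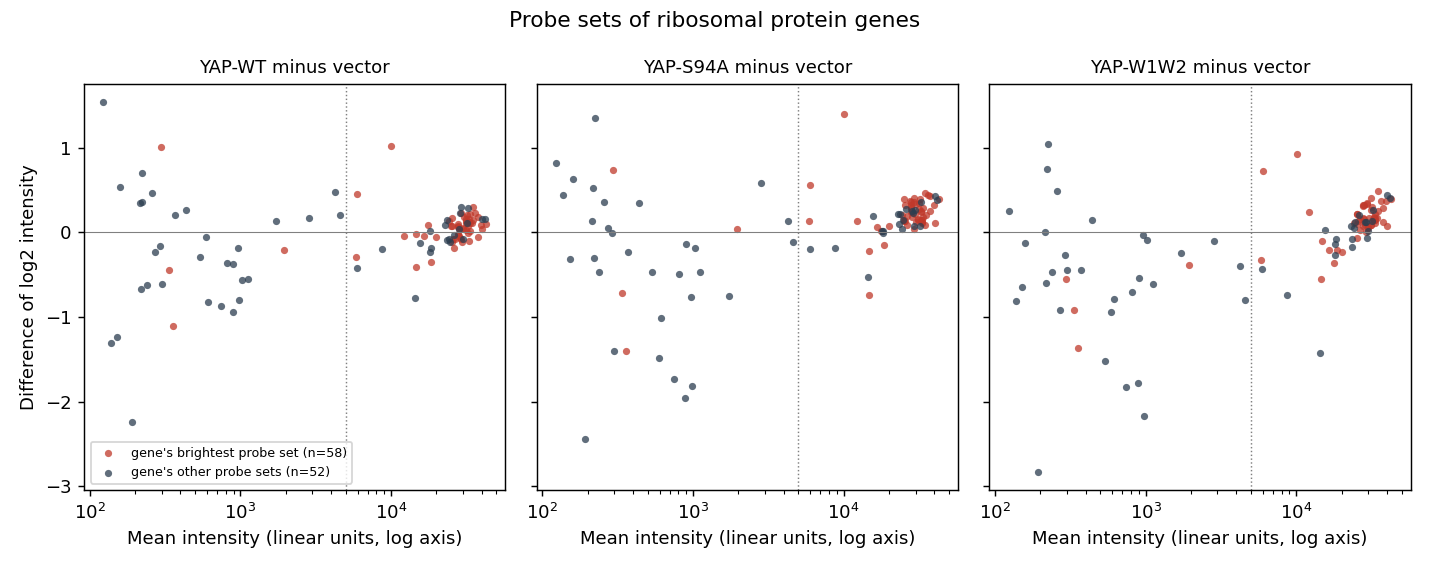
Difference of log2 intensity from vector (y axis) against mean intensity over the 4 arrays (x axis, log axis) for the 110 measured probe sets of ribosomal protein genes, with the brightest probe set of each gene in red and the others in dark blue, 1 panel per YAP array. Of the 75 points right of the dotted line at 5000, 2, 2 and 4 pass 1.5-fold for YAP-WT, YAP-S94A and YAP-W1W2, among them RPL22L1 and a probe set of RPS9. Of the 35 points left of it, 14, 15 and 18 do, and 22, 22 and 29 lie below 0.

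A further 65 probe sets carried a ribosomal protein symbol together with other symbols, 56 of them with that of a small nucleolar RNA, many of which lie in introns of ribosomal protein genes. No gene was named from them, and 15 ribosomal protein symbols occur only there. The 47 of these with a mean intensity of 5000 or more gave medians from vector of 0.03 for YAP-WT, 0.22 for YAP-S94A and 0.15 for YAP-W1W2. Their SDs were 0.14, 0.15 and 0.20, and 0 of 47 passed 2-fold, so this unnamed set gave values close to those of the 51 canonical genes.

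Genes that work beside the ribosome are given for comparison, from lists chosen with earlier results known. FAU, which encodes a small subunit protein fused to a ubiquitin-like one and lies outside the symbol rule, had 26961 for YAP-WT, 28723 for YAP-S94A and 26098 for YAP-W1W2, against 18983 in vector. Its differences of 0.51, 0.60 and 0.46 lie above those of every canonical gene for YAP-WT and YAP-S94A, and RPS14 lay above FAU for YAP-W1W2. EEF1A1, the factor that brings transfer RNA to the ribosome, differed from vector by 0.23, 0.32 and 0.35. EEF2, which moves the ribosome along the message, differed by 0.12, 0.05 and −0.08, and EEF1D, an exchange factor for EEF1A1, by 0.21, −0.03 and −0.27. Of 11 other genes with TOP messages, 0, 0 and 1 passed 2-fold for YAP-WT, YAP-S94A and YAP-W1W2 against vector. Of all measured genes 14.1%, 16.8% and 19.8% did. The 1 TOP gene was EIF4B, an initiation factor, with 7917, 5405 and 3681 on the YAP arrays, against 9316 in vector.

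Factors that initiate translation or carry ribosomal proteins are given next. Over all measured genes 9.11%, 10.3% and 11.4% were at least 2-fold higher than vector for YAP-WT, YAP-S94A and YAP-W1W2, and 4.95%, 6.53% and 8.4% lower. Of 28 measured initiation factors and their regulators 0, 4 and 1 were at least 2-fold higher than vector on those arrays, or 0, 14.3% and 3.57%, and 0 lower. Their median log2 difference was 0.10, 0.41 and 0.29. EIF2B3, a subunit of the exchange factor of eIF2, had 1445 for YAP-WT, 2501.5 for YAP-S94A and 1744 for YAP-W1W2, against 925.6 in vector. EIF4EBP1, which represses initiation when mTOR is inactive, had 1606, 2430.1 and 1338 on the YAP arrays, against 905.2 in vector. Of 19 chaperones, import and assembly factors 0, 4 and 0 were at least 2-fold higher, or 0, 21.1% and 0, and 0 lower. The share of higher genes was thus above that of all measured genes only on the YAP-S94A array, for both lists. RRS1, an assembly factor of the large subunit, had 1799.8 for YAP-WT, 4287 for YAP-S94A and 2760.3 for YAP-W1W2, against 1632 in vector. BCCIP, which escorts a large subunit protein, had 4075, 7385.5 and 5794 on the YAP arrays, against 2979.8 in vector. The median over the 19 factors was 0.35, 0.67 and 0.38 from vector, beside 0.06, 0.21 and 0.15 for the canonical genes. MYC, which drives ribosome production, had 6410 for YAP-WT, 10186 for YAP-S94A and 4993.5 for YAP-W1W2, against 4846 in vector, and MXD1, which opposes MYC, had 347.1, 884.0 and 285.6, against 700.3 in vector. MXI1, listed with these 2 genes, was below vector on every YAP array. It had 1389 for YAP-WT, 1003 for YAP-S94A and 981 for YAP-W1W2, against 1907 in vector.

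Scaling the arrays to the ribosomal protein genes changed the balance of higher and lower genes. The median intensity of the 51 canonical genes was 28838 for YAP-WT, 32547 for YAP-S94A and 30789.9 for YAP-W1W2, against 26964 in vector. Setting these equal lowers the YAP arrays by 0.10, 0.27 and 0.19 (log2) relative to vector. As deposited, 1162 measured genes stood 2-fold or more above vector and 631 below it for YAP-WT, so that 64.8% of the changed genes were higher. After the scaling the counts were 971 and 771, or 55.7%. In YAP-S94A they were 767 higher and 1372 lower, or 35.9%, against 1312 and 833, or 61.2%, as deposited. In YAP-W1W2 they were 1069 and 1493, or 41.7%, against 1460 and 1072, or 57.7%, as deposited. The scaling lowers every gene of an array by the same amount, so the shift of the split follows from that amount and is no measurement on single genes. With it, lower genes outnumbered higher ones for both mutants, while the number of changed genes moved by under 1.1 times, with 1742, 2139 and 2562 after the scaling, against 1793, 2145 and 2532 as deposited.

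Comparisons between YAP arrays shifted too. In YAP-S94A against YAP-WT 26.8% of the changed genes were higher after the scaling, against 44.7% as deposited, and in YAP-W1W2 against YAP-WT 31.2%, against 41.2%. In YAP-W1W2 against YAP-S94A the share was 61.6%, against 52.8%. Centring each array on its median measured gene gave 50.1% higher for YAP-WT, 47.1% for YAP-S94A and 54.9% for YAP-W1W2 against vector. It gave 57.7% for YAP-W1W2 against YAP-WT and 65.1% for YAP-W1W2 against YAP-S94A. Quantile normalization gave 58.0%, 54.6% and 56.6% for the comparisons with vector.

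How the list was averaged mattered as well. The mean of log2 intensities in place of the median, an alternative added after seeing the data, gave 62.2%, 43.0% and 48.6% higher for YAP-WT, YAP-S94A and YAP-W1W2 against vector. The same scaling by other lists gave other splits. By median level, the proteasome genes gave 41.7%, 20.8% and 23.3% higher, and the mitochondrial ribosomal protein genes 39.9%, 18.3% and 44.2%. For the 13 PCR reference genes the median on each array fell on TFRC, the transferrin receptor, which had 13874 for YAP-WT, 8186 for YAP-S94A and 7338 for YAP-W1W2, against 14649.5 in vector. Scaling to that level put 96.8% of the changed genes higher in both mutants, and to the mean of the list's log2 values 35.5% for YAP-S94A and 47.0% for YAP-W1W2.

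**Figure D5:**
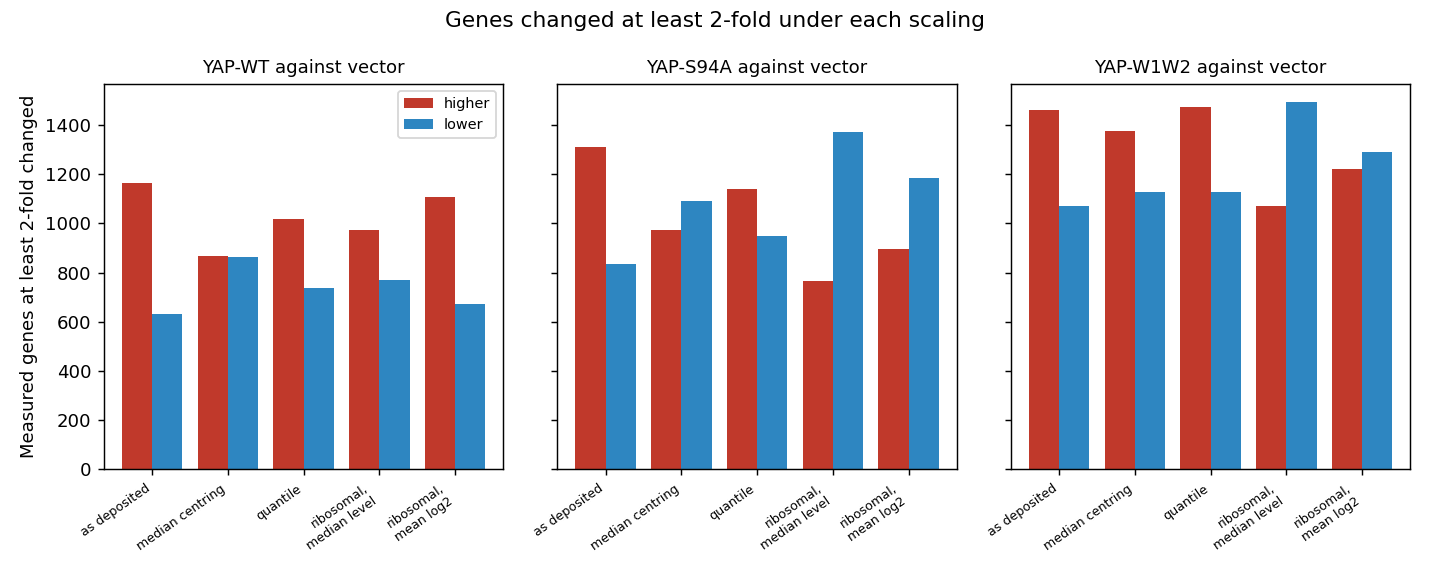
Measured genes at least 2-fold higher (red) and lower (blue) than vector (y axis, number of genes) under 5 scalings (x axis), 1 panel per YAP array. In both mutants higher genes outnumber lower ones as deposited, and lower outnumber higher when the arrays are scaled to the canonical ribosomal protein genes.

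The range of the canonical genes after scaling to their own median was 1.12-fold, which is partly set by the scaling itself. For genes not used in the scaling, the median range over the 4 arrays was 1.30-fold after it for the other genes as bright, against 1.47-fold as deposited. It was 1.27-fold, against 1.46-fold, for the proteasome genes, and 1.38-fold, against 1.53-fold, for the mitochondrial ribosomal protein genes. The paralogs went the other way, with 2.02-fold after the scaling, against 1.68-fold as deposited. Over all measured genes it was 1.73-fold both before and after. Whether the canonical genes kept their level per cell, so that scaling to them is right, cannot be told from these arrays.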

How the data were processed

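Total RNA of 4 MCF10A cultures was hybridised to 1 Affymetrix array each. The deposited array intensities, on a linear scale, were made by the authors with GCOS, the Affymetrix operating software, per the submitters' processing notes; neither its version nor a scaling target is given in the sources used here. The table held 54675 probe sets: 62 controls, 41091 with 1 gene symbol, 1801 with several and 11721 with none in the platform annotation. All 60 ribosomal protein genes matched RefSeq (GRCh38.p14) by Entrez identifier, and 0 symbols needed updating. Intensities below 72.9, the 40th percentile, were raised to this floor before taking log2, and a gene took its brightest probe set with 1 symbol. Where 1 array is at the floor, the fold is only a bound. Without replicates no test was run, and genes were counted past 2-fold and 1.5-fold; the number of arrays limits the precision. The counting was tested on simulated data.

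The genes, lists and settings were chosen with earlier results of these data known. Values per array are given for the 4 highest and 4 lowest genes in each comparison with vector, every paralog, every gene past 1.5-fold, and RPS18. From other lists come all measured elongation factors and FAU, and otherwise some of the largest changes, not the largest of every comparison. Other named genes, such as RPS10, RPS6, RPS15, RPS16, RPS19, RPL11, RPL37, RPL41, ACTB, B2M, PGK1 and TFRC, were chosen after their values were seen. Alternatives were median centring, quantile normalization, scaling to gene lists, other floors, other probe set choices, no filter on dim genes and canonical genes alone. Python 3 with pandas and numpy was used.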

Additional observations from a re-analysis of the deposited data

How the results depend on the processing

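No paired analysis was possible because each group has 1 array. With paralogs included, the median log2 difference of the 58 ribosomal protein genes as deposited was 0.06, 0.20 and 0.14 for YAP-WT, YAP-S94A and YAP-W1W2 against vector, 0.18 for YAP-S94A and 0.09 for YAP-W1W2 against YAP-WT, and −0.06 for YAP-W1W2 against YAP-S94A. After median centring it was −0.11 for YAP-WT and 0.054 for YAP-S94A against vector, 0.22 for YAP-W1W2 against YAP-WT and 0.056 for YAP-W1W2 against YAP-S94A; 1 gene then passed 2-fold in YAP-WT against vector and 2 passed 1.5-fold in YAP-W1W2 against YAP-WT. After quantile normalization it was −0.064, −0.087 and −0.18 against vector, 0.0145 for YAP-S94A and −0.079 for YAP-W1W2 against YAP-WT, and 1 gene passed 2-fold in YAP-WT against vector. With the mean over probe sets 6 ribosomal protein genes passed 1.5-fold in YAP-WT against vector, 3 passed 2-fold in YAP-W1W2 against vector, and 2 passed 1.5-fold in each mutant against YAP-WT. All measured genes past 2-fold then numbered 1145 for YAP-WT and 1683 for YAP-W1W2 against vector, 902 and 714 for YAP-S94A and YAP-W1W2 against YAP-WT, and 762 for YAP-W1W2 against YAP-S94A. With probe sets that carry no _s, _x or _a suffix, which left 28 of the genes, 7 passed 1.5-fold in YAP-WT against vector, 6 passed 2-fold and 8 passed 1.5-fold in YAP-S94A, and 4 and 9 in YAP-W1W2, where the median was −0.0081. In that setting 3 passed 2-fold and 5 passed 1.5-fold in YAP-S94A against YAP-WT, 3 and 6 in YAP-W1W2 against YAP-WT, and 2 and 4 in YAP-W1W2 against YAP-S94A. On the brightest probe sets, 16.8% and 38.0% of all measured genes passed 2-fold and 1.5-fold in YAP-S94A against vector. For YAP-W1W2 these shares were 19.8% and 41.3%. The scarcity of 2-fold changes on the brightest probe sets of ribosomal protein genes thus did not hold for these 28 genes, paralogs included. With the canonical genes alone 0 passed 2-fold in any comparison, 0 passed 1.5-fold in YAP-WT against vector or between YAP arrays, and 1 passed 1.5-fold in each mutant against vector. The cause of these shifts was not tested, except that the canonical setting leaves out the paralogs and the suffix setting leaves fewer genes. Other floors and the filter on dim genes moved none of these medians by 0.1 or counts by over 1.5 times, and scaling to the canonical genes moved no 2-fold count by that much. Dim genes rest on few units of intensity, and with 1 array per group no difference can be set against replicate error.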
